A study of Mus musculus with 16 samples.

Results

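The NMDA receptor subunit genes are described here by 11 probe sets, chosen as every probe set whose only platform gene symbol is Grin2a, Grin2b, Grin2c, Grin2d or Grin3a, out of 45037 probe sets that are not array controls. These 11 covered 5 of the 6 genes listed. Grin1, which encodes the GluN1 subunit common to all NMDA receptors, had 0 probe sets under that rule and is not analysed here. By gene, Grin2a had 1 probe set, Grin2b 4, Grin2c 1, Grin2d 2 and Grin3a 3. A filter that kept probe sets with a mean above 3.58 log2 units over all arrays passed 9 of the 11, with at least 1 for each of the 5 genes.

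Hippocampal RNA was taken from 16 females of the 3xTG-AD mouse line at 14 months of age, with 1 Affymetrix array per animal. All of them carry the alleles of this Alzheimer's disease model, so there is no wild-type group. The PIO group of 8 animals (numbered 9 to 16) received pioglitazone, a thiazolidinedione that activates the nuclear receptor PPAR gamma, in the diet at 84 ppm, for a daily dose near 18 mg/kg. The control group of 8 animals (numbered 1 to 8) received a control diet. Feeding began at 10 months of age and lasted about 14 weeks.

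NMDA receptors are glutamate-gated channels that also need glycine or D-serine, and that let calcium in when glutamate release coincides with depolarization. They are built from GluN1 together with GluN2 or GluN3 subunits, and the GluN2 type sets how long the channel stays open. In the hippocampus they start long-term potentiation at many, though not all, pyramidal and granule cell synapses, which makes them a common subject of work on memory. GluN2B (Grin2b) dominates early in life and GluN2A (Grin2a) joins it as synapses mature. GluN2C (Grin2c) is best known from cerebellar granule cells, thalamic neurons and glia, GluN2D (Grin2d) from interneurons and subcortical neurons, and GluN3A (Grin3a) lowers the calcium flow of the receptors that contain it.

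For the start of transcription, RefSeq promoter windows on GRCm38.p6 were matched by symbol to Grin2c and Grin2d, 2 of the 5 measured genes. They are shown because PPAR gamma binds pairs of the core motif AGGTCA, and because GC boxes (GGGCGG) are a common feature of promoters that lack a TATA box. Capitals mark AGGTCA and GGGCGG on either strand. The windows lie at chr11:115267194-115267493, minus strand, for Grin2c, and at chr7:45866632-45866931, minus strand, for Grin2d, and run from 250 bases before the start to 50 after it.
Grin2c: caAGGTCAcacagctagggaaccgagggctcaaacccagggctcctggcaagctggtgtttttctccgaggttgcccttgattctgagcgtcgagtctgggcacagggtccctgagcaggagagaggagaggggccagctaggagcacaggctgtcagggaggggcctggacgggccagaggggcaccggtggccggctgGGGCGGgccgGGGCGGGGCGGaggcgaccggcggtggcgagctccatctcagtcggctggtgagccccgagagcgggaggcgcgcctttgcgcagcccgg
Grin2d: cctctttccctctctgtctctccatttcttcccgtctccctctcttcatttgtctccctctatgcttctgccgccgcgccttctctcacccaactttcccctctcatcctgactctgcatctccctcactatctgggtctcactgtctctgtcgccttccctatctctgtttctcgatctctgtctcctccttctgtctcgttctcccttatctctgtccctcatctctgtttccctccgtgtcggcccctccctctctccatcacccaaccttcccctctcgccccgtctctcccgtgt
The Grin2c window held 1 AGGTCA, whose first base lies 248 bases before the start, and 3 GGGCGG that begin 50, 40 and 35 bases before it, the last 2 of which share 1 base. The Grin2d window held 0 matches to either motif. It lies inside the RefSeq span of Grin2d, which reaches 45871194 on chromosome 7. The window thus describes a start within the gene and not the outermost end of that span. Among 32851 promoter windows of the same length, 16.3% held AGGTCA and 35.7% held GGGCGG. The paired element AGGTCANAGGTCA was in 0 windows of both genes and in 0.0396% of all windows. The GC content was 70.0% for Grin2c, 56.0% for Grin2d and 52.7% in the median window.

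The deposited values are log2 expression, with array medians between 5.65 and 5.76, and the correlation of any array with any other was 0.994 to 0.998. Markers of the principal cells of the hippocampus were measured, 7 of 8 for CA pyramidal neurons and 7 of 8 for dentate granule cells, but passing the filter does not by itself mark out this tissue, since 8 of 8 choroid plexus and 8 of 9 thalamic and habenular markers passed it too. Neurod6, a transcription factor gene of pyramidal neurons, was at 12.94 ± 0.25 log2 units in PIO and 13.10 ± 0.17 in control animals (SD, n = 8 each). Markers of other tissue varied between animals. The mean of the striatal list relative to all arrays, over 6 of 9 markers that were measured, ran from -0.27 to 0.81 in PIO and from -0.45 to 0.40 in control animals, and was highest in PIO animals 15 and 14 (0.81 and 0.62). In these 2 animals the dentate list was lowest, at -0.72 and -0.79. The list for thalamus and habenula ran from -0.25 to 1.09 in PIO and from -0.33 to 0.094 in control animals. PIO animal 16 stood apart there at 1.09, and PIO animal 14 came next at 0.25. The choroid plexus list ran from -3.63 to 2.63 in PIO and from -3.20 to 2.42 in control animals. The array labels held a number whose meaning is not given. It ran from 1 to 6 in PIO animals 9 and 10 and control animals 1 to 4. In the other 6 PIO and 4 control animals it ran from 10 to 24. Within each of these ranges every control number was below every PIO number.

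The comparison of PIO with control animals asked whether subunit expression differed with the drug. Over 12266 genes, 0 passed an adjusted p of 0.05 (0% called) in limma's moderated test with Benjamini-Hochberg adjustment, and none of the 5 subunit genes did. At an unadjusted p under 0.05, 2 of the 5 subunit genes were counted, against a background of 7.00% of all genes. They were Grin3a, at a higher mean with PIO (3.86% of all genes were counted as higher), and Grin2a, at a lower mean (3.15% were counted as lower). The differences of the 5 genes lay between -0.40 and 0.21 log2 units, with a median of -0.044, beside a median of 0.0045 over all genes. In bulk tissue, fewer cells of a type and less RNA per cell cannot be told apart.

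**Figure D1:**
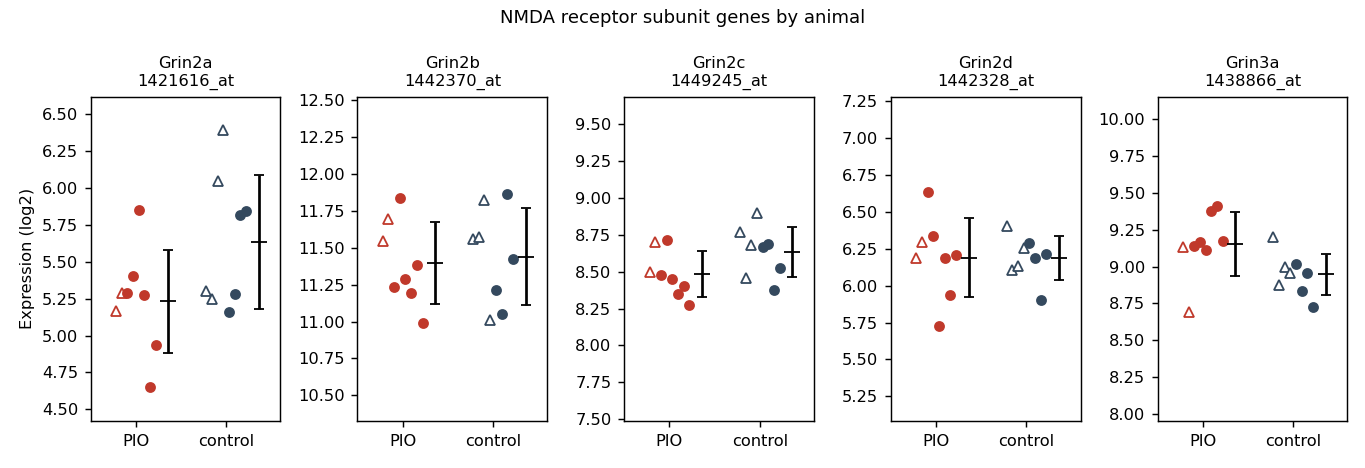
Log2 expression of the 5 measured subunit genes in each animal, PIO left and control right, with the mean and SD of 8 animals beside each group; open triangles are arrays numbered 1 to 6 and filled circles arrays 10 to 24. Every panel spans the same height in log2 units. The groups overlap for all 5 genes, with Grin2a lower and Grin3a higher on average in PIO animals.

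Grin2a, the GluN2A gene, had the largest difference of the 5 and also the lowest signal. Its mean over all arrays was 5.43 log2 units, below every array median (5.65 to 5.76). Its SD over all arrays, 0.44, was the largest of the 5. Whether the processing enlarged a difference at this low level was not tested. The only Grin2a probe set, 1421616_at, had a lowest, median and highest value of 4.65, 5.28 and 5.85 log2 units in PIO animals, and of 5.16, 5.56 and 6.39 in control animals. The groups overlapped, with 2 PIO animals below the lowest control and 7 of 8 below the control median. The group means were 5.23 ± 0.35 in PIO and 5.64 ± 0.45 in control animals (SD, n = 8 each). The difference was -0.40 (SE 0.19, 95% interval -0.80 to -0.0064), a 0.756-fold level, with a limma adjusted p of 0.712 and an unadjusted p of 0.0468 in that fit.

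The Grin2a difference was unequal between 3 batches given by the code at the end of the array descriptions, whose meaning is not stated. In the largest batch, with 6 PIO and 5 control arrays, the means were 5.38 in PIO and 5.41 in control animals, and limma's difference there was -0.028 (adjusted p = 1.00). In the second batch, PIO animal 15 was at 4.65 and control animals 7 and 4 at 5.82 and 6.39. In the last batch, PIO animal 16 was at 4.94 and control animal 8 at 5.85. With batch as a block it was -0.39 (limma adjusted p = 0.756), and without PIO animal 16, the library with the highest thalamic mean, it was -0.36 (adjusted p = 0.781).

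Grin2b, the GluN2B gene, had a diet difference of about its SE or less on each probe set. The probe set with the highest mean, 1442370_at, ran from 10.99 through a median of 11.34 to 11.84 in PIO animals and from 11.01 through 11.49 to 11.86 in control animals, so the ranges nearly coincided. The difference was -0.044 (SE 0.14, 95% interval -0.34 to 0.26; limma adjusted p = 0.966). PIO animal 16 was the lowest of all animals here and on 1457003_at, at 10.99 and 8.52, and without it the difference was 0.014 (limma adjusted p = 0.993). For 1457003_at the means were 8.93 ± 0.41 in PIO and 9.09 ± 0.20 in control animals (SD, n = 8 each), a difference of -0.15, with 4 PIO animals below the lowest control and 1 above the highest. For 1422223_at they were 7.05 ± 0.35 in PIO and 7.11 ± 0.27 in control animals (SD, n = 8 each), a difference of -0.062. The fourth, 1431700_at, stayed between 1.59 and 1.65 log2 units in all 16 animals, below the filter, and says nothing of the gene's level.

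The 3 probe sets of Grin2b that passed the filter agreed unequally from animal to animal, with 1 of the 3 pairs near a correlation of 0. Those called 1442370_at and 1422223_at had a Pearson correlation of -0.050 and a Spearman rho of 0.024 over 16 animals (permutation p = 0.854 and 0.935, also after adjustment over the 6 relations computed). Those called 1442370_at and 1457003_at had r = 0.55 and rho = 0.61 (permutation p = 0.0274 and 0.0148, adjusted 0.0411 and 0.0222), and r was 0.45 without control animal 7 and PIO animal 12, the farthest from the median. The remaining pair, 1457003_at and 1422223_at, had r = 0.45 and rho = 0.37 (permutation p = 0.0817 and 0.161, adjusted 0.0981 and 0.193), and r = 0.35 without its farthest animals. In the 10 arrays numbered 10 to 24, r was 0.22, 0.53 and 0.64 for these pairs in the same order. All 3 probe sets gave a diet difference of the same sign.

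**Figure D2:**
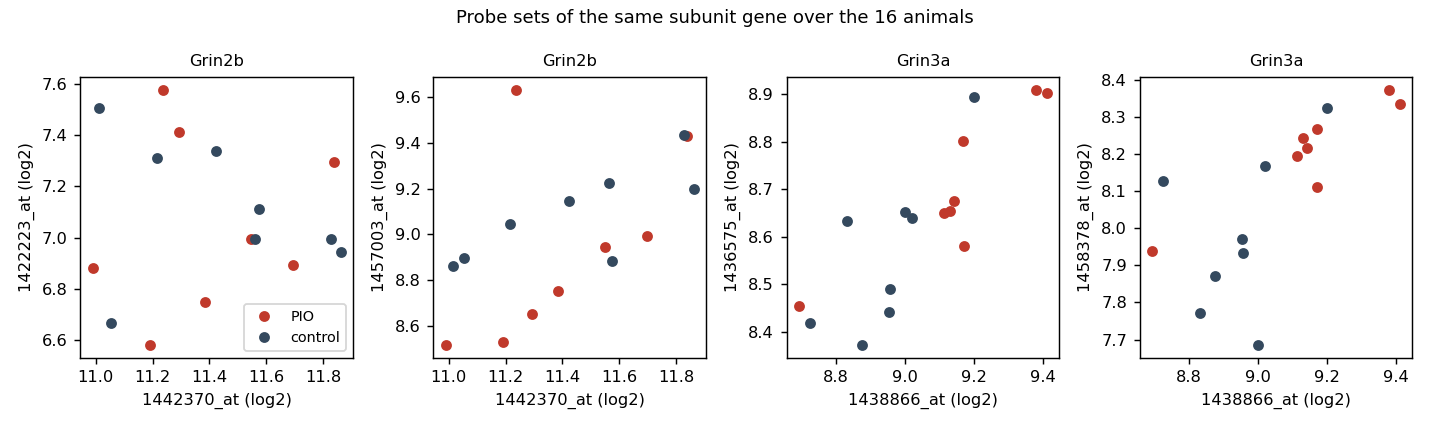
Log2 values of pairs of probe sets of the same gene in the 16 animals (PIO red, control dark blue), with 2 pairs for Grin2b and 2 for Grin3a. The first Grin2b pair shows no common trend (r = -0.050), and the Grin3a pairs rise together (r = 0.85 and 0.72).

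The balance of GluN2A to GluN2B is often followed as synapses mature, so the difference Grin2a minus Grin2b was taken within each array and set relative to its mean over the 16 arrays. Being a difference of RNA signals of unlike probe sets, it is not a ratio of molecules or of subunit proteins. The difference ran from -0.75 to 0.54 in PIO animals and from -0.34 to 1.36 in control animals. The means were -0.18 ± 0.41 in PIO and 0.18 ± 0.54 in control animals (SD, n = 8 each), so that the diets differed by -0.36, less than either SD, and no test was made. Control animal 4, at 1.36, carried much of this value: without it the means were -0.18 in PIO and 0.011 in control animals, a difference of -0.19. In arrays 10 to 24 the means were -0.10 in PIO and 0.12 in control animals, a difference of -0.22. With each of the other Grin2b probe sets in place of 1442370_at the diets differed by -0.25 (1457003_at) and -0.34 (1422223_at).

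Grin2c, the GluN2C gene, was lower on average in PIO animals by a small amount. Its probe set 1449245_at had a lowest, median and highest value of 8.28, 8.46 and 8.72 in PIO and of 8.37, 8.67 and 8.90 in control animals. The groups overlapped, with 2 PIO animals below the lowest control and 6 of 8 below the control median. The means were 8.48 ± 0.16 in PIO and 8.63 ± 0.17 in control animals (SD, n = 8 each), and the difference was -0.15 (SE 0.079, 95% interval -0.31 to 0.019; limma adjusted p = 0.742). In each of the 3 batches the PIO mean was below the control mean, at 8.53 against 8.65, 8.40 against 8.64 and 8.28 against 8.53, the last 2 with a single PIO array each.

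Beside Grin2c, all 8 of 8 astrocyte markers had a lower mean with PIO, none past the adjusted threshold, with a median difference of -0.067. Of all 12266 genes, 6463 had a higher and 5803 a lower mean. Lower means were not particular to astrocytes. All measured markers of microglia (8), myelin (7) and dentate granule cells (7) were lower too. So were 6 of 7 for CA pyramidal cells, 5 of 8 for neurons and 4 of 9 for interneurons. The astrocyte list mean per animal, relative to all arrays, ran from -0.26 to 0.096 in PIO and from -0.064 to 0.17 in control animals, and PIO animals 15 and 14 were lowest. The lowest Grin2c value, 8.28, was in PIO animal 16, whose astrocyte mean was 0.0021 and whose thalamic mean was the highest, and without this animal the Grin2c difference was -0.12 (limma adjusted p = 0.817). All 8 measured markers of thalamus and habenula, out of 9, had a higher mean with PIO, with a median difference of 0.18 and none past the adjusted threshold. Of the 8 cerebellar markers 3 were measured. Calb1, which hippocampal neurons also express, differed by 0.15 (SE 0.059), En2 by 0.11 (SE 0.092) and Car8 by -0.050 (SE 0.19), and the list mean ran from -0.11 to 0.23 in PIO and from -0.20 to 0.19 in control animals. The other 5, Gabra6, Cbln3, Pcp2, Fat2 and Barhl2, had highest probe set means of 2.26 to 3.28, below the filter. The part of astrocytic, thalamic or cerebellar RNA in the Grin2c difference was not tested.

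Grin2d, the GluN2D gene, had nearly equal group means. Its probe set 1442328_at had a lowest, median and highest value of 5.73, 6.20 and 6.64 in PIO and of 5.91, 6.20 and 6.41 in control animals. PIO animals held both the lowest and the highest value. The difference was 0.0023 (SE 0.10, 95% interval -0.21 to 0.22; limma adjusted p = 0.999), and its sign turned with the scaling, to -0.0024 after quantile normalization and -0.0023 with a common median. The second probe set, 1421393_at, stayed between 1.43 and 1.47 in all animals, below the filter. The interneuron list, whose cells are a known source of Grin2d, had 5 of 9 measured markers at a higher and 4 at a lower mean with PIO.

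Grin3a, the GluN3A gene, was higher on average in PIO animals on all 3 of its probe sets. The probe set with the highest mean, 1438866_at, had a lowest, median and highest value of 8.69, 9.16 and 9.41 in PIO and of 8.73, 8.96 and 9.20 in control animals. The groups overlapped, with 2 PIO animals above the highest control, 7 of 8 above the control median, and PIO animal 10 below every control. The means were 9.15 ± 0.22 in PIO and 8.95 ± 0.14 in control animals (SD, n = 8 each), a difference of 0.21 (SE 0.087, 95% interval 0.020 to 0.39), a 1.15-fold level. Its limma adjusted p was 0.681 and its unadjusted p in that fit 0.0317.

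The other 2 probe sets of Grin3a gave differences of the same sign and like size. For 1458378_at the means were 8.21 ± 0.14 in PIO and 7.98 ± 0.21 in control animals (SD, n = 8 each), a difference of 0.23 (SE 0.086, 95% interval 0.046 to 0.41). For 1436575_at they were 8.70 ± 0.16 in PIO and 8.57 ± 0.17 in control animals (SD, n = 8 each), a difference of 0.14 (SE 0.079, 95% interval -0.032 to 0.30). On each of the 3, 7 of 8 PIO animals lay above the control median and 2 above the highest control. In limma's fit of all 45037 probe sets, 0 passed the adjusted threshold (0% called), and 2 of the 11 subunit probe sets, both of Grin3a, had an unadjusted p under 0.05, where 5.26% of all probe sets did.

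The 3 probe sets of Grin3a varied together from animal to animal. For 1438866_at and 1436575_at r was 0.85 and rho 0.85 (permutation p = 5e-05 and 8e-05, adjusted 3e-04 and 0.00048), and r was 0.81 without PIO animals 10 and 15. For 1438866_at and 1458378_at r was 0.72 and rho 0.81 (permutation p = 0.00186 and 0.00025, adjusted 0.00558 and 0.00075), and r was 0.69 without the same 2 animals. For 1436575_at and 1458378_at r was 0.59 and rho 0.64 (permutation p = 0.0164 and 0.00918, adjusted 0.0328 and 0.0184), and r was 0.46 without control animal 2 and PIO animal 14. The values above pool both diets. After removal of the group means the 3 correlations were 0.82, 0.60 and 0.48 in the same order. In the largest batch of 11 arrays the 3 correlations were 0.85, 0.77 and 0.63.

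**Figure D3:**
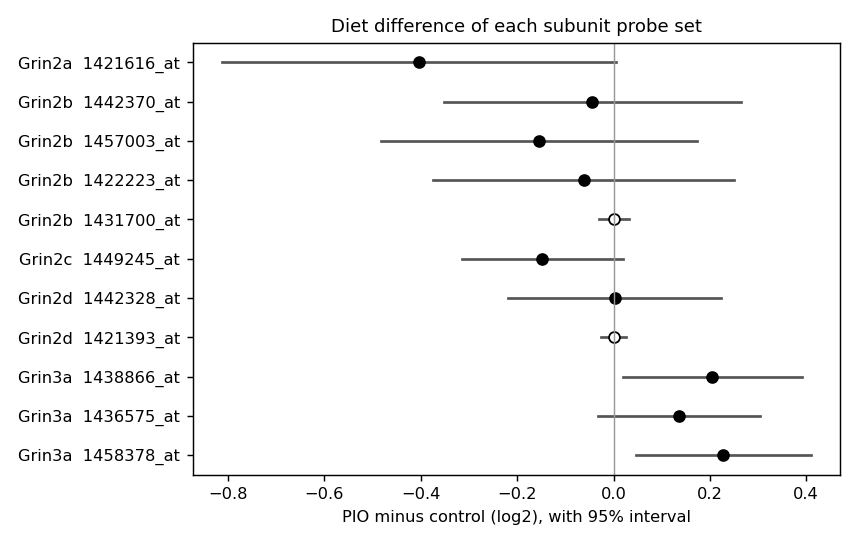
PIO minus control in log2 units for each of the 11 subunit probe sets, with its 95% interval from limma's fit of all probe sets; open circles are the 2 probe sets below the filter. The intervals of 2 Grin3a probe sets lie above 0, and that of Grin2a just reaches it.

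The Grin3a difference was unequal in the 2 ranges of array number. In arrays 10 to 24 the values of 1438866_at lay between 9.11 and 9.41 in the 6 PIO animals and between 8.73 and 9.02 in the 4 control animals, without overlap. Such a separation, with PIO above control, was found for 1.13% of all genes, and Grin3a alone of the 5 subunit genes had it. The difference in these arrays was 0.35 (SE 0.082), with a limma adjusted p of 0.546 and an unadjusted p of 0.0015, and 5.38% of all genes were higher there at an unadjusted p under 0.05. In arrays 1 to 6, PIO animals 10 and 9 were at 8.69 and 9.13 and the 4 control animals between 8.88 and 9.20. The other 2 probe sets of Grin3a overlapped in arrays 10 to 24. The lowest PIO and highest control values were 8.58 and 8.64 for 1436575_at, and 8.11 and 8.17 for 1458378_at. In arrays 1 to 6 the means were 8.91 in PIO and 9.01 in control animals for 1438866_at, 8.55 and 8.60 for 1436575_at, but 8.09 and 7.95 for 1458378_at, so the sign there differed between probe sets. Whether the ranges differ in their diet difference was not tested. In arrays 10 to 24 the control animals had numbers 10 to 13 and the PIO animals 17 to 24. In arrays 1 to 6 the control numbers were also all below the PIO numbers. Diet and array number therefore cannot be told apart within either range.

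PIO animals 15 and 14 held the highest values of Grin3a on 1438866_at, 9.41 and 9.38, and also the highest striatal marker means. Of the striatal list, 5 of 6 measured markers had a higher mean with PIO, among them Gpr6, a receptor gene of striatal projection neurons (0.81, SE 0.37), Drd1, the dopamine D1 receptor gene (0.33, SE 0.19), and Ppp1r1b, which encodes DARPP-32 (0.22, SE 0.20). Drd2 had a highest probe set mean of 2.29, below the filter. Control animal 7, whose striatal mean (0.40) came next after theirs, had a Grin3a value of 8.96, near the control median. The Grin3a difference was 0.11 (limma unadjusted p = 0.146, adjusted p = 0.970) with the striatal mean as a covariate. It was 0.12 (limma unadjusted p = 0.158, adjusted p = 0.968) without PIO animals 14 and 15. In arrays 10 to 24 without these 2 animals it was 0.27 (limma unadjusted p = 0.0053, adjusted p = 0.987), a fit chosen after seeing the data. In that fit 550 of 12266 genes had an unadjusted p under 0.05. The part of striatal RNA in the Grin3a difference was not tested.

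**Figure D4:**
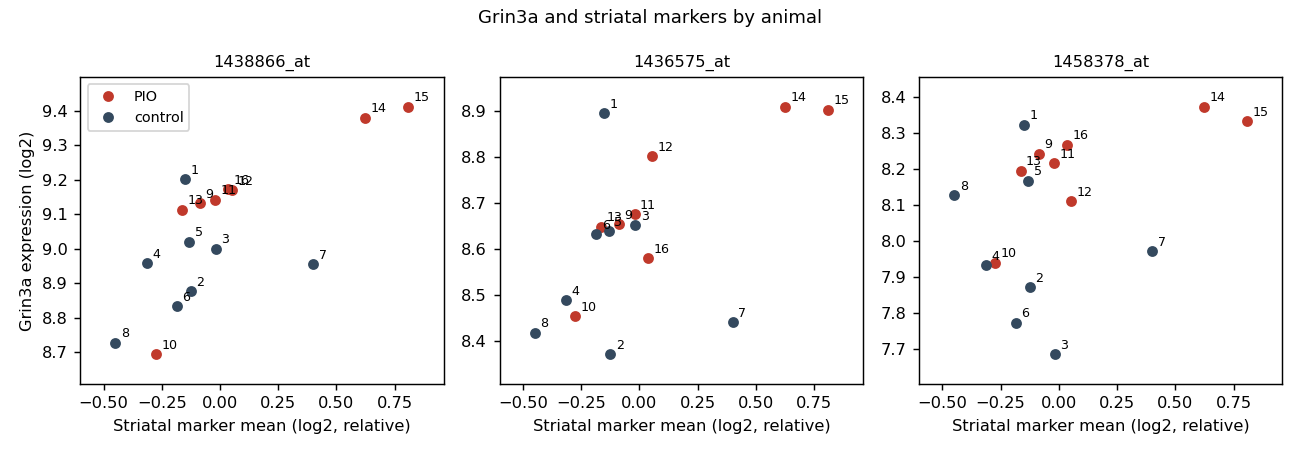
Log2 level of the 3 Grin3a probe sets against the mean of the 6 measured striatal markers, relative to all arrays, with animal numbers (PIO red, control dark blue). PIO animals 14 and 15 lie at the upper right of every panel, and control animal 7 (0.40) lies below them in each.

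Correlations between the subunit genes were weak to moderate and were not tested. Each gene was taken by its probe set of highest mean. For Grin2b this was 1442370_at, which had r = -0.050 with 1422223_at of the same gene. After removal of the group means, the 10 pairwise Pearson correlations over the 16 animals lay between -0.25 (Grin2a with Grin3a) and 0.45 (Grin2c with Grin2d). The genes most like each subunit were sought by the same measure over all 12266 genes and are given as a description only, since all points share arrays and tissue content. Nearest to Grin2a were Usp39, Gatd3a and Ak5 (r = 0.94, 0.88 and 0.88), and nearest to Grin2b were Marf1, Rian and Uxs1 (r = 0.90, 0.88 and 0.84). Nearest to Grin2c were Ina, Tmem167b and Sardh (r = 0.84, 0.84 and 0.82), and nearest to Grin2d were Sall2, Baz2a and Akt1 (r = 0.91, 0.87 and 0.87). Nearest to Grin3a were Slc1a6, a glutamate transporter gene, Ier5l and Rgs17 (r = 0.87, 0.85 and 0.85).

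The genes around the receptor were taken as 7 lists of 98 genes, of which 83 were measured. With PIO 35 had a higher and 48 a lower mean, with a median difference of -0.017, and 52.7% of all genes were higher. None of the 83 passed the adjusted threshold, and 6 of them (7.23%) had an unadjusted p under 0.05, 2 higher and 4 lower, close to the 7.00% over all genes.

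Supply of the agonists came first among these lists. For the co-agonists glycine and D-serine, 2 of 9 measured genes had a higher and 7 a lower mean, with a median of -0.099. The enzymes of serine synthesis Psph, Psat1 and Phgdh differed by -0.13 (SE 0.052), -0.12 (SE 0.062) and -0.081 (SE 0.043). These 3, named for the smallest unadjusted p of their list, are known to be enriched in astrocytes. Astrocyte markers also had lower means, as did most markers of several other cell types, as given above. The part of astrocytic RNA in these 3 differences was not tested. For glutamate, 4 of 8 genes had a higher and 4 a lower mean. The neuronal transporter gene Slc1a1 differed by -0.13 (SE 0.047), the astrocytic transporter gene Slc1a2 by -0.12 (SE 0.050) and Slc1a6 by 0.095 (SE 0.060). For these 6 genes the limma adjusted p ran from 0.666 to 0.773.

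Scaffolds that hold the receptor at the synapse had 5 of 14 genes at a higher and 9 at a lower mean, with a median of -0.047. Dlg4, which encodes PSD-95, the scaffold that binds GluN2 tails, differed by -0.088 (SE 0.053), Homer2 by -0.059 (SE 0.039) and Shank3 by -0.070 (SE 0.072). Genes of receptor transport were split 6 and 6, with Nsf, an ATPase of membrane fusion, at -0.082 (SE 0.041), Snx27, an endosomal sorting gene, at -0.084 (SE 0.057) and Rab11a, of recycling endosomes, at 0.059 (SE 0.044). Kinases and phosphatases that act on the receptor had 10 of 18 genes at a higher and 8 at a lower mean. The anchoring protein gene Akap5 differed by 0.12 (SE 0.073), the casein kinase gene Csnk2a1 by -0.16 (SE 0.11) and the protein kinase C gene Prkcb by -0.070 (SE 0.047).

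Effectors of the calcium that the receptor admits had 3 of 14 genes at a higher and 11 at a lower mean, with a median of -0.033. Rasgrf1, a calcium-sensitive Ras exchange factor gene, was at 14.01 ± 0.11 in PIO and 14.19 ± 0.17 in control animals (SD, n = 8 each), a difference of -0.17. Camk2d, a calcium/calmodulin kinase gene, was at 10.68 ± 0.56 in PIO and 10.04 ± 0.54 in control animals (SD, n = 8 each), a difference of 0.64. Nos1, neuronal nitric oxide synthase, differed by 0.12 (SE 0.059). Of repressors known from subunit promoters, 5 of 8 measured genes had a higher and 3 a lower mean, with Rcor1, the REST corepressor gene, at 0.14 (SE 0.047), Sin3a at -0.074 (SE 0.055) and Hdac2 at 0.052 (SE 0.039). Adjusted p was 0.654 for Rcor1, 0.681 for both Rasgrf1 and Camk2d, and 0.717 for Nos1 in limma's fit.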

How the data were processed

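Hippocampal RNA of 16 animals was measured on Affymetrix arrays. The deposited values are log2 expression per probe set, a scale read from the values themselves (0.33 to 16.6). Per the submitters' processing notes the tools were MAS5, GCRMA and R 2.7.1, with no statement of which gave these values. A background model such as that of GCRMA would set weak probe sets to a narrow low band and could enlarge differences just above it. Detection calls were not used here. Precision is limited by the number of arrays.

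Of 45101 probe sets, 64 controls were left out. Platform annotation gave 34945 a single symbol, 932 several and 9160 none. The filter kept probe sets above the 40th percentile of the mean over all arrays, and each gene was represented by its probe set of highest mean (12266 genes). Groups came from the sample titles, each animal once, and were compared in limma 3.58.1 (R 4.3.3, functions lmFit and eBayes), group as the only term and p adjusted by Benjamini-Hochberg over all genes. Each difference is PIO minus control, with its moderated SE. A second fit took all 45037 probe sets without a filter. Correlations of probe sets used 100000 permutations, two-sided. Simulated data checked both fits: with 12266 genes the share recovered was 50% at 0.25 log2 units and 86% at 0.5. Each gene was drawn independently with normal noise, with 50 genes changed at each size, up to 2 log2 units. Arrays here share tissue content and had 0 genes called, so these shares do not give the power for the subunit genes.

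The members, gene lists, settings and naming rule were chosen with earlier results of these data known. Named genes were all members, up to 3 genes of each pathway list by smallest p, marker genes of tissue lists, and the 3 genes most like each member. Of the marker genes, those below the filter were named after their values were seen. The other lists gave medians of -0.018 for neurons, -0.16 for CA pyramidal cells, -0.21 for dentate granule cells, 0.012 for interneurons, -0.19 for myelin, -0.17 for microglia, 1.30 for choroid plexus, 0.16 for striatum, 0.18 for thalamus and habenula, and 0.11 for cerebellum. Alternatives covered the filter, normalization, batch, array number, prior, weights, covariates, probe set choice and each animal left out.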

Additional observations from a re-analysis of the deposited data

Results flagged for a closer look

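In 24 groups of 8 values (11 probe sets and the Grin2a minus Grin2b difference, in each diet group), 2 held an animal far from the others by Dixon's test at the 95% level, where chance gives about 1 in 20 groups. PIO animal 10 had the lowest Grin3a value on 1438866_at, 8.69 log2 units, well below the next PIO animal. Without it the Grin3a difference was 0.27, the highest of the fits that left out 1 animal, and limma's adjusted p was 0.334. Control animal 4 had a Grin2a minus Grin2b difference of 1.36 relative to the mean of all arrays, above every other animal. Without control animal 4 the diets differed by -0.19 in this measure, beside -0.36 with it, and the Grin2a difference was -0.30, the smallest of the fits that left out 1 animal.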

How the results depend on the processing

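None of the 5 subunit genes passed limma's adjusted threshold under any alternative, and the smallest adjusted p was 0.334 (Grin3a without PIO animal 10). The count of genes past that threshold was 0 in every fit run, at an unadjusted count of 859 in the fit reported and of 290 in the largest batch alone, 517 without PIO animals 14 and 15, 550 in arrays 10 to 24 without these and 543 with the striatal covariate, and it ran from 575 to 1137 with 1 animal left out. Grin2a, Grin2c and Grin3a kept their direction under all 30, 31 and 31 alternatives run. For Grin2a this includes a difference of -0.028 in the largest batch alone, smaller than its SE of 0.17. Limma's unadjusted p was under 0.05 in 10 of the 30 for Grin2a, 4 of the 31 for Grin2c and 22 of the 31 for Grin3a. The Grin2a difference ran from -0.49 to -0.30 and that of Grin3a from 0.17 to 0.27 with 1 animal left out. In the largest batch alone the Grin3a difference was 0.12. The Grin2c difference was -0.089 with the striatal covariate, and that of Grin2a was -0.15 in arrays 10 to 24 without PIO animals 14 and 15. The Grin2a minus Grin2b difference ran from -0.46 to -0.19 with 1 animal left out. The sign turned for Grin2b and Grin2d, in each case at a difference smaller than its SE. For Grin2b it was 0.021 in the largest batch alone and 0.0030 with the array number range as a block, and ran from -0.11 to 0.016 with 1 animal left out. For Grin2d it was -0.0024 after quantile normalization, -0.0023 with a common median, -0.023 with batch as a block, -0.0095 with array weights and -0.038 with the choroid plexus covariate, and ran from -0.061 to 0.068 with 1 animal left out. The filter at the 60th percentile (7.39 log2 units) left out Grin2a and Grin2d. The fits without PIO animals 14 and 15, and the Grin2a minus Grin2b differences with 1 animal left out, were chosen after seeing the data. No paired analysis was possible because animal numbers do not repeat across the groups. The cause of these changes was not tested.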
